A study of Mus musculus with 26 samples.

Results

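Chromatin at 10 T-box genes was followed in mouse embryonic stem cells: T, Eomes, Tbr1, Tbx1, Tbx2, Tbx3, Tbx4, Tbx5, Tbx6 and Tbx20. They are 10 of the 26180 RefSeq genes with an annotated start site. In each of 12 deposited tables of regions, the region that overlapped 1.5 kb either side of a start site was taken, and where several did so the one with the most overlap was kept. This gave 82 of the 338442 regions in the tables.

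T-box proteins bind DNA through a shared domain and act at successive steps of mesoderm and organ formation. T (Brachyury) and Eomes act in the primitive streak, and Tbx6 specifies presomitic mesoderm. Tbx1 acts in the pharyngeal arches and the outflow tract, Tbx20 and Tbx5 in the cardiac chambers, and Tbx2 and Tbx3 repress the chamber programme in the atrioventricular canal. Tbx4 and Tbx5 also mark the hindlimb and the forelimb. Tbr1 is set apart by its role, since it is best known from cortical projection neurons and not from mesoderm, and Tbx3 is also linked to self-renewal of embryonic stem cells. Promoters of such developmental genes often carry H3K4me3, a mark of active promoters, and H3K27me3, a mark deposited by Polycomb repressive complex 2, at the same time. DPPA2 and DPPA4 are paired proteins that keep a subset of these bivalent promoters marked.

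The study set out to measure bivalency by immunoprecipitating chromatin with an antibody against the first mark and then, from that eluate, against the second. K4-K27 denotes H3K4me3 followed by H3K27me3 and K27-K4 the reverse, and part of the first eluate was kept as in-line total H3K4me3 or in-line total H3K27me3. Every sample was the mouse line E14 grown on gelatin in serum and LIF, and MNase-digested, formaldehyde-fixed chromatin was used. Non-clonal wild-type E14 cells gave replicates 1 and 2, sequenced in batches A and B. WT clones 57 and 58 and DPPA2/4 double knockout (DKO) clones 43 and 53, all from E14 and all sequenced in batch C, gave 2 libraries per ChIP and genotype, so each genotype rests on 2 clones. IgG–IgG reChIPs came from E14 replicate 1 and from WT clone 57, and the latter served as background for the DKO clones too. In such bulk chromatin a mark on fewer cells and a weaker mark on all cells cannot be told apart. Batch and cell source cannot be told apart between E14 cells and clones, whereas WT and DKO clones shared a batch.

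Values are log2 RPM per kb, reads scaled to the depth of the library and to the length of the region, so that levels of different genes can be set side by side, and the libraries held 6741244 to 47903462 reads. At the 9 genes with a region in both E14 reChIP tables, WT clone 57 lay above WT clone 58 at 9 of 9 for total H3K4me3, total H3K27me3 and K27-K4, by a median of 0.80, 0.68 and 0.67. E14 replicate 2 lay above replicate 1 by a median of 1.29 in K27-K4. Part of the spread inside these groups was therefore shared by the genes. All 6 stem cell marker genes examined (Pou5f1, Nanog, Sox2, Zfp42, Esrrb and Klf4) had a total H3K4me3 region in E14, WT and DKO tables. Of 5 primitive endoderm markers 3, 5 and 4 had one in E14, WT and DKO tables, and of 4 fibroblast markers 4, 4 and 2. H3K4me3 is known also at silent CpG-rich promoters, so these counts do not measure expression. The Dppa2 and Dppa4 promoters kept total H3K4me3 in the DKO clones, at a mean of 1.93 to 2.02 above IgG–IgG, which does not check a deletion inside the gene.

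RefSeq promoter sequences (250 bases before to 50 after the start, GRCm38.p6) were matched for 7 of the 10 genes, in 8 promoters. 5 are shown because the genes behaved differently in the DKO clones: reChIP signal at Tbr1 and Tbx4 was called lower, that at T and Tbx20 was not, and Tbx6 had no reChIP region within 1.5 kb in E14 or WT cells. Capitals mark CpG dinucleotides, and each sequence runs 5′ to 3′ on the strand of the gene.
Tbr1 promoter, chr2:61804203-61804502, + strand: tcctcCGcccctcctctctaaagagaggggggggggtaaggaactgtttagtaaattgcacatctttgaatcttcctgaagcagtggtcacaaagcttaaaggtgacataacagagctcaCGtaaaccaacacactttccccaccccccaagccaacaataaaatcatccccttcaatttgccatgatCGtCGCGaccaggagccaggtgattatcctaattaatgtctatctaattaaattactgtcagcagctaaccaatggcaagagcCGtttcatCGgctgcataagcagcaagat
Tbx4 promoter, chr11:85896515-85896814, + strand: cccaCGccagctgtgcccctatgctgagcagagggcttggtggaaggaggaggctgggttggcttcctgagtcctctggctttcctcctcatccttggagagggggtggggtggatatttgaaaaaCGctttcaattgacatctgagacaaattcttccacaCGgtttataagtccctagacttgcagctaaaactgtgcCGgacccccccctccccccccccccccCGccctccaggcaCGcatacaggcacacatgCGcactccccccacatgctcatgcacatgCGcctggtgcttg
T promoter, chr17:8434173-8434472, + strand: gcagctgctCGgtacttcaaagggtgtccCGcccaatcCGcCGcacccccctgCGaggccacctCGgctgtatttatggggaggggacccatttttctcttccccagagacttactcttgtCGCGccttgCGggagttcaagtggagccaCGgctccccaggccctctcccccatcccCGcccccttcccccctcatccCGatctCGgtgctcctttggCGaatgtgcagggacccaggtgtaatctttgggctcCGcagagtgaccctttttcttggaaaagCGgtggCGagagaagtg
Tbx20 promoter, chr9:24774254-24774553, - strand: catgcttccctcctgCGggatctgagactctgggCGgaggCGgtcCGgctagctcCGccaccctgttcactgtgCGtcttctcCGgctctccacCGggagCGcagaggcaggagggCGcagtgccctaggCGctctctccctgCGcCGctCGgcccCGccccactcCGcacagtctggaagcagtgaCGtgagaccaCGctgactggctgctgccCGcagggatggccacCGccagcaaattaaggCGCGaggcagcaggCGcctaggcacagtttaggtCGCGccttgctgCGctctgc
Tbx6 promoter, chr7:126781233-126781532, + strand: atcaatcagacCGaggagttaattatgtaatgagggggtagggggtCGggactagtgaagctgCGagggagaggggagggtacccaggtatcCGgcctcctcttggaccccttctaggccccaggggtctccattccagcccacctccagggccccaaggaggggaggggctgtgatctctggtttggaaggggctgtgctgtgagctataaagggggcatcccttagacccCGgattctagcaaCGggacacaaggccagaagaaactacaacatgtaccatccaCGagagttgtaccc
The Tbr1 promoter holds 7 CpGs, Tbx6 holds 7 and this Tbx4 promoter, at the second of its start sites, holds 8, against a median of 7 over 32851 RefSeq promoters. In the clone tables the called total H3K4me3 and K4-K27 regions of Tbx4 lay at its first start site, which had no matched promoter. Its called K27-K4 region ended before the printed sequence. The K27-K4 region of the WT table, which covers that sequence, was not called. The T promoter holds 17 and the Tbx20 promoter 26, more than 68.6% and 83.1% of promoters. Of the promoters not printed, Eomes holds 10, and the pair of Tbx1 entries hold 26 and 16. The T-box site AGGTGTGA, searched on both strands (as TCACACCT on the other), was found in 0 of the 8 promoters and in 1.28% of all promoters of this length, which says only that these letters are not in these windows.

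In E14 cells, 9 of the 10 genes lay in a region of the K4-K27 table and of the K27-K4 table, all but Tbx6. The share of RefSeq genes with a region in these tables was 58.7% and 66.2%. These regions had the same edges in both tables and ran from 5850 bp at Tbr1 to 25950 bp at Tbx2. Their median of 19650 bp compares with 3300 bp over the 21857 regions that the tables share, and all 9 were wider than 78.7% or more of them. Their median CpG density was 2.49 per 100 bp, against 2.37 over all shared regions. Tbx1 and Tbx2 had a higher GC content than 96.3% and 93.5% of shared regions, and the other 7 genes lay above 19.2% to 61.1% of them. The broadest regions also span neighbouring starts: 2610027K06Rik at Tbx2, Tbx3os1 at Tbx3 and Gm5563 at Tbx5, so signal there cannot be assigned to the T-box gene alone. Tbx2 and Tbx4 start 53.8 kb apart on chromosome 11, and Tbx3 and Tbx5 start 163 kb apart on chromosome 5, in separate regions.

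The in-line totals listed fewer of these genes in E14 cells. Total H3K4me3 regions were listed at 2 of 10 (Tbx2 and Tbx3) against 53.2% of RefSeq genes, and total H3K27me3 regions at 4 of 10 (Tbx1, Tbx2, Tbx4 and Tbx20) against 12.1%. Widening the window to 5 kb raised these counts to 6 and 7, and brought Tbx6 into both E14 reChIP tables, 10 of 10 genes. In the WT clones, K4-K27 and K27-K4 regions were listed at 9 of 10 (background 59.4% and 33.7%), total H3K27me3 at 8 (15.8%) and total H3K4me3 at 6 (60.2%).

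In the DKO clones, K4-K27 regions were listed at 7 genes (57.8% of RefSeq genes) and no longer at Tbr1, Tbx4 or Tbx5, while Tbx6 had one. K27-K4 regions were listed at 7 (32.1%) and no longer at Tbr1 or Tbx3. Total H3K27me3 was listed at 7 (17.6%), without Tbr1 and Tbx3 and with T, which had no such region in the WT table, and total H3K4me3 at 5 (56.1%), without Tbx4. With 5 kb either side, Tbx6 was also listed in the WT K4-K27 table, Tbx2 in the WT total H3K4me3 table, T in the WT total H3K27me3 table and Tbx5 in the DKO K4-K27 table. A listed region is the result of the authors' region calling and carries no test.

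**Figure D1:**
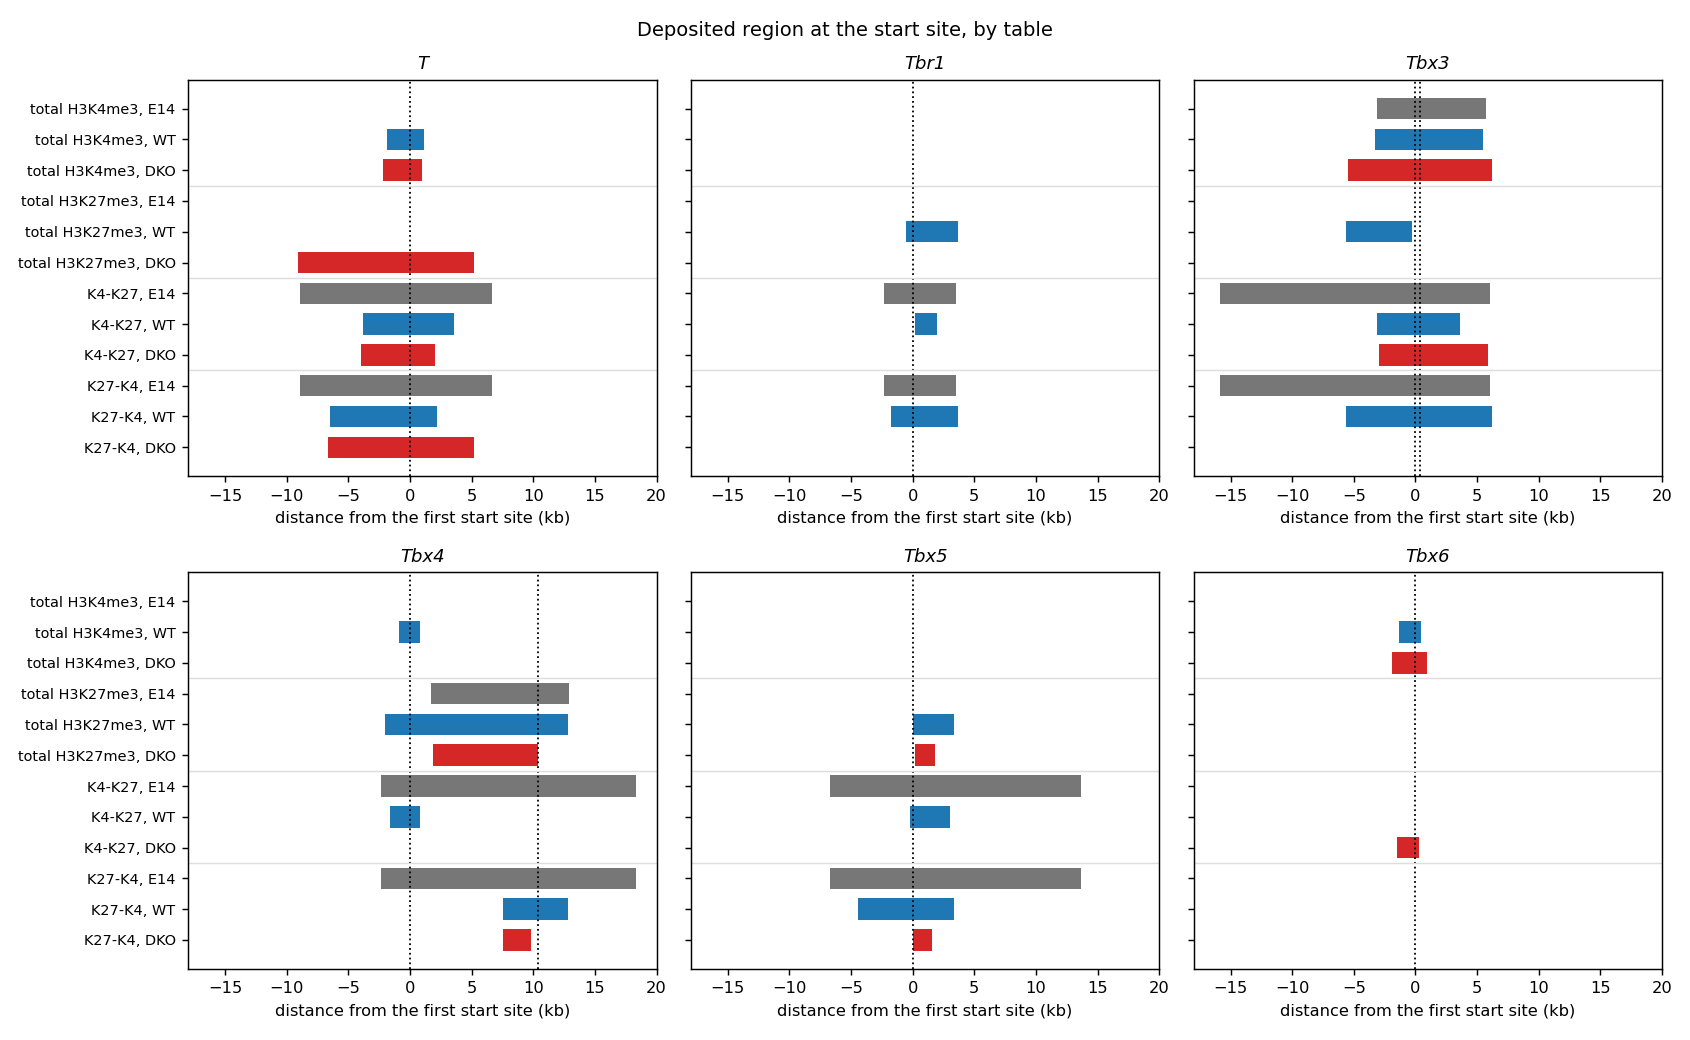
The bars show the deposited region kept at 6 of the genes in each of the 12 tables (rows), as distance from the first start site in kb along the gene, with dotted lines at start sites and grey, blue and red for E14, WT and DKO tables. T has reChIP regions in every source, Tbr1 has none in any DKO table, Tbx3 has no H3K27me3 or K27-K4 region in DKO tables, and Tbx6 has H3K4me3 regions in both clone tables and a K4-K27 region in the DKO table.

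Levels were compared in the shared E14 regions, where all 24 ChIP and reChIP libraries have a value for 9 genes. Tbx2 had the highest K4-K27 level in E14 cells (2.88 ± 0.12, SD, n = 2), followed by Tbx1 (2.71 ± 0.09), and Tbx3 had the lowest (1.32 ± 0.37). In WT clones Tbx2 (2.78 ± 0.19) and Tbx1 (2.64 ± 0.06) were again highest and Tbx5 (0.77 ± 0.25) was lowest. This order holds for the shared E14 regions. In the K4-K27 regions of the WT table, Eomes (3.45 ± 0.49) and Tbx20 (3.36 ± 0.46) stood above Tbx2 (3.26 ± 0.20) and Tbx1 (3.13 ± 0.11), by less than the sum of the SDs. In both sources Tbx2 and Tbx1 differed in the shared regions by less than the sum of their SDs, and in E14 cells so did every other pair of neighbours except Tbx1 and Tbx20 (2.21 ± 0.23). In K27-K4 the order in E14 cells ran from Tbx2 (3.25 ± 1.03) to Tbx5 (1.99 ± 0.69). The SDs there hold the shift between replicates named above, and Tbx2 lay above Tbx5 within each replicate. Both reChIPs stood above IgG–IgG at all 9 genes in each E14 and WT library, by 1.69 to 3.43 for K4-K27 and 1.94 to 4.31 for K27-K4 in E14 cells, and by 0.88 to 3.09 and 1.31 to 3.22 in the WT clones. The 9 genes were kept for their E14 reChIP regions, which the paper called with IgG–IgG as control. The excess in E14 cells therefore follows from that choice, and Tbx6 was left out by it.

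The totals differed between the marks. Total H3K27me3 stood above IgG–IgG at all 9 genes, by 0.33 to 1.53 in E14 cells and 0.36 to 2.37 in WT clones. In K27-K4 the genes' median excess over IgG–IgG was 1.66 to 3.55 over the 6 libraries, beside 0.89 to 2.58 for all shared regions, and 6 to 9 of the 9 genes exceeded the median of all regions. In K4-K27 all 9 genes exceeded it in both E14 libraries. In the clones 4 of 9 genes lay above it in WT clone 57 (genes' median 2.20 against 2.21), 6 of 9 in WT clone 58, and 3 of 9 in each DKO clone (1.82 against 2.04 and 1.22 against 1.56). In total H3K27me3 between 7 and 9 of the 9 genes exceeded the median of all shared regions, whereas in total H3K4me3 between 0 and 2 did, with medians of 0.05 to 0.85 against 0.95 to 2.14 for all shared regions. That comparison sets a mean over wide regions (median 19650 bp) beside one over narrower regions (3300 bp), and the part of the width in it was not tested. In the narrower total H3K4me3 regions of the WT table the excess over IgG–IgG in WT clones 57 and 58 was 3.27 and 2.09 at Tbx4, 3.12 and 1.75 at Eomes, 2.37 and 1.23 at Tbx20 and 1.84 and 0.78 at T. In the shared E14 regions Tbx3 had the highest total H3K4me3 of the 9 in each source (0.70 ± 0.32 in E14, 1.42 ± 0.71 in WT and 2.16 ± 0.33 in DKO). In E14 cells Tbx2 was close behind (0.65 ± 0.11) and higher in replicate 1 (0.73 against 0.48), so those 2 genes do not differ beyond their spread. In WT clones Eomes (1.13 ± 0.78) lay within the spread of Tbx3, and stood higher over IgG–IgG (mean 1.53 against 1.30). In the total H3K4me3 region of the WT table Tbx3 stood 2.02 and 0.85 above IgG–IgG, less than Eomes.

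**Figure D2:**
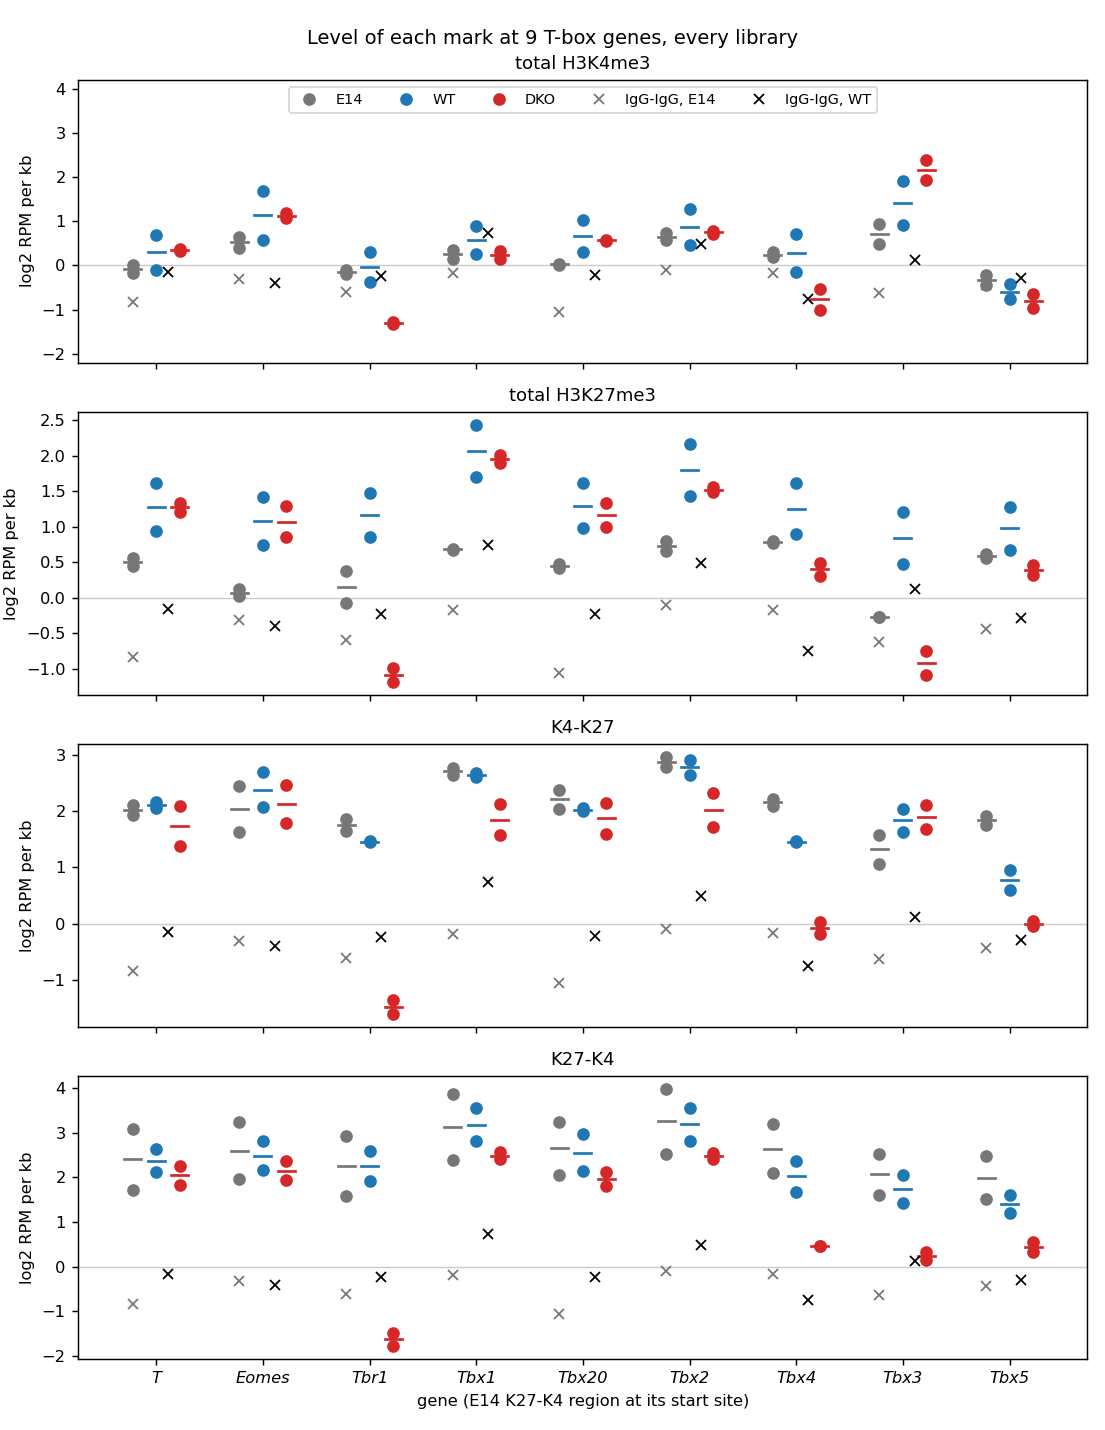
Points show log2 RPM per kb (vertical axis) at the shared E14 region of 9 genes (horizontal axis) in every E14 (grey), WT (blue) and DKO (red) library, 1 panel per ChIP, with bars at group means and crosses for IgG–IgG. Tbr1 falls to or below the IgG–IgG value in all 4 panels in DKO clones, and Tbx3 falls in total H3K27me3 and K27-K4 but not in total H3K4me3 or K4-K27.

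Loss of DPPA2 and DPPA4 was then examined gene by gene, with limma on the regions of the WT and DKO tables together. A call needed a log2 difference beyond 1, up or down, with a p under 0.05 after Benjamini-Hochberg adjustment. For total H3K4me3, 1 of 6 genes with a region was called lower (Tbx4), where 2.47% of all regions and 1.66% of those within 1.5 kb of a start site were called lower. For total H3K27me3, 2 of 9 were (Tbr1 and Tbx3), beside 1.78% of all regions and 1.69% of those near start sites. For K4-K27, 2 of 10 were (Tbr1 and Tbx4), beside 1.19% and 1.42%. For K27-K4, 3 of 9 were (Tbr1, Tbx4 and Tbx5), beside 2.24% and 4.09%. These are counts of genes, most of which have a region in each table, and the calls fell on 1 of 10, 2 of 15, 2 of 16 and 3 of 16 of their regions. Regions of the WT table were listed for signal in WT clones, so a lower DKO value is favoured there. All calls but that at Tbx4 in K27-K4 fell in such regions. No DKO region was listed for Tbr1, for Tbx4 in total H3K4me3 and K4-K27 or for Tbx3 in total H3K27me3. The shared E14 regions used below come from wild-type cells too. None of the 10 genes was called higher in these 4 comparisons, and 0.254%, 0.976%, 0.00557% and 0.027% of all regions were. The median difference over the genes' regions was 0.21, -0.28, -0.52 and -0.72 in that order, beside 0.13, 0.11, -0.01 and -0.15 over all regions. With 2 clones a genotype an exact two-sided permutation test of a single region cannot go below p = 0.333, so the limma p-values rest on a spread pooled over regions and measure the spread between these clones. Groups that do not overlap reach only that permutation p = 0.333. The share of all regions without overlap was not counted, so non-overlap at a gene is a description.

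Tbr1 was called lower in both reChIPs and in total H3K27me3. In its K27-K4 region (chr2:61802701-61808100) WT clones 57 and 58 had 2.69 and 2.05 and DKO clones 43 and 53 had -1.69 and -1.36, with 553 and 381 reads against 39 and 36. The groups did not overlap, and both DKO values lay under the IgG–IgG value of -0.29. The difference was -3.90 (SE 0.60, limma adjusted p = 1.7e-06), a 14.9-fold fall.

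K4-K27 at Tbr1 (chr2:61804651-61806450) was 2.64 and 2.68 in WT clones and -0.44 and -1.38 in DKO clones. The difference of -3.57 (SE 0.86, limma adjusted p = 0.0054) rested on 104 and 124 reads against 14 and 9. Total H3K27me3 (chr2:61803901-61808100) was 1.80 and 1.16 in WT clones and -1.18 and -1.17 in DKO clones, a difference of -2.65 (SE 0.44, limma adjusted p = 1.9e-05). No total H3K4me3 region was listed at Tbr1. In its shared E14 region total H3K4me3 was 0.31 and -0.38 in WT clones and -1.31 and -1.29 in DKO clones, without overlap, and the difference of -1.26 was not called (SE 0.47, limma adjusted p = 0.10). E14 cells held Tbr1 close to the WT clones in K4-K27, at 1.64 and 1.86 against 1.46 and 1.45.

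Tbx4 fell in H3K4me3 and in both reChIPs, and was not called in total H3K27me3. At its first start site (chr11:85885501-85887150) total H3K4me3 was 2.46 and 1.28 in WT clones and -1.24 and -0.32 in DKO clones, beside -0.81 in IgG–IgG. The groups did not overlap, and the difference was -2.65 (SE 0.53, limma adjusted p = 0.00025). K4-K27 there (chr11:85884751-85887150) was 2.80 and 2.65 in WT clones and -1.34 and 0.65 in DKO clones, a difference of -3.07 (SE 0.73, limma adjusted p = 0.0046). The DKO clones themselves differed by more than the WT clones, with 10 reads in clone 43 and 49 in clone 53.

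The K27-K4 regions of Tbx4 lay near its second start site, the one whose promoter is printed above. In the region of the DKO table (chr11:85893901-85896150) the WT clones had 3.03 and 2.25 and the DKO clones 0.86 and 1.30, a called difference of -1.56 (SE 0.44, limma adjusted p = 0.031). The DKO values stayed above the IgG–IgG value of -3.07, which rests on 4 reads. In the wider region of the WT table the difference was -1.30 and was not called (limma adjusted p = 0.082). Total H3K27me3 (chr11:85884301-85899150) was 1.94 and 1.22 in WT clones and 0.43 and 0.67 in DKO clones, where -0.76 was the IgG–IgG value. Its difference of -1.03 had a 95% interval of -1.83 to -0.22 and was not called (limma adjusted p = 0.16).

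Tbx3 was called in total H3K27me3 and, unlike Tbx4, not in total H3K4me3. Upstream of its start (chr5:119665201-119670600) total H3K27me3 was 1.66 and 0.93 in WT clones and -0.65 and -0.18 in DKO clones, with IgG–IgG at 0.60. The groups did not overlap, and the difference was -1.71 (SE 0.41, limma adjusted p = 0.0063). Total H3K4me3 (chr5:119667601-119676300) was 2.68 and 1.51 in WT clones and 3.00 and 2.56 in DKO clones, so the groups overlapped, with a difference of 0.68 and a 95% interval of -0.96 to 2.32.

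The reChIP orientations gave different values at Tbx3 in the DKO clones. K4-K27 (chr5:119667751-119674500) was 3.17 and 2.42 in WT clones and 3.07 and 2.50 in DKO clones, and the groups overlapped throughout (difference -0.01, 95% interval -1.19 to 1.17). K27-K4 (chr5:119665201-119677050) was 2.33 and 1.57 in WT clones and 0.58 and 0.61 in DKO clones, close to the IgG–IgG value of 0.38. Its difference of -1.36 was not called (SE 0.42, limma adjusted p = 0.065), but it was with the lowest quartile of mean values left out (limma adjusted p = 0.038) and on the WT table only (limma adjusted p = 0.039). In the shared E14 region it was -1.50 and was called (limma adjusted p = 0.00056).

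Tbx5, which acts in the heart and the forelimb, fell in K27-K4. In the region of the WT table (chr5:119830201-119838000) the values were 2.19 and 1.65 in WT clones and 0.12 and 0.55 in DKO clones, without overlap (difference -1.58, SE 0.43, limma adjusted p = 0.022). In the narrower region of the DKO table the difference was -1.28 and was not called (limma adjusted p = 0.10). K4-K27 (chr5:119834401-119837700) was 1.30 and 1.72 in WT clones and 0.13 and 0.13 in DKO clones, above the IgG–IgG value of -1.23. These groups did not overlap either, yet the difference of -1.38 was not called (SE 0.89, limma adjusted p = 0.48). Total H3K27me3 was 1.61 and 0.93 against 0.64 and 0.57, a difference of -0.67 with a 95% interval of -1.48 to 0.14.

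Tbx6 had H3K4me3 regions in both clone tables and no H3K27me3 or K27-K4 region within 1.5 kb in any table. Total H3K4me3 (chr7:126780151-126781950) was 1.67 and 0.38 in WT clones and 2.29 and 1.76 in DKO clones, where IgG–IgG had -1.29. Both DKO values lay above both WT values, but the difference of 1.01 had a 95% interval of -0.34 to 2.35 (limma adjusted p = 0.80). In the K4-K27 region of the DKO table (chr7:126780001-126781800) the values were 0.70 and -0.69 in WT clones and 1.80 and 1.31 in DKO clones, from 27, 12, 66 and 58 reads. The difference of 1.55 was not called (limma adjusted p = 0.41). In that same region total H3K27me3 was -1.59 and -1.81 in WT clones and -0.95 and -1.41 in DKO clones, about the IgG–IgG value, and K27-K4 was -2.03 and 0.31 against 0.25 and -0.78.

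T, Eomes, Tbx1, Tbx2 and Tbx20 were not called in the fits of all 4 clones in any comparison in which they had a region. Tbx1 and Tbx2 had no total H3K4me3 region within 1.5 kb in either clone table, and at T, Eomes and Tbx20 that difference lay between -0.14 and 0.23 (6 regions). In the shared E14 regions total H3K4me3 differed by -0.34 at Tbx1 (95% interval -1.37 to 0.69) and by -0.12 at Tbx2 (95% interval -1.29 to 1.04). Over the 5 genes the difference lay between -0.28 and -0.02 for total H3K27me3 (9 regions), between -0.89 and 0.05 for K4-K27 (10 regions) and between -0.73 and -0.37 for K27-K4 (10 regions). In the regions of the WT table, K27-K4 at T was 3.35 and 2.78 in WT clones and 2.83 and 2.43 in DKO clones. K27-K4 at Eomes was 3.56 and 2.75 against 2.95 and 2.61, and at Tbx20 it was 4.19 and 2.73 against 3.28 and 2.75. The groups overlapped at each of these 3 genes. At Tbx1, with 3.70 and 2.95 against 2.70 and 2.52, and at Tbx2, with 3.65 and 2.91 against 2.62 and 2.47, they did not overlap, though neither difference was called. In K4-K27 the groups overlapped at Eomes and at Tbx20, which had 3.69 and 3.04 in WT clones and 3.79 and 3.04 in DKO clones. They did not overlap at T (2.91 and 3.03 against 2.87 and 2.05), Tbx1 (3.20 and 3.05 against 2.56 and 1.92) or Tbx2 (3.40 and 3.11 against 2.82 and 2.17). At T the nearest clones had 2.91 and 2.87, and none of these 3 differences was called. The 95% intervals of the 5 genes' differences reached from -2.06 to 1.31 in K4-K27 and from -1.80 to 0.69 in K27-K4.

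The DKO comparisons were also run over the shared E14 regions, where each gene has 1 region for all ChIPs. There 0, 2, 2 and 3 of the 9 genes were called lower in the H3K4me3 and H3K27me3 totals and in both reChIPs, in the order used above, where 5.55%, 2.33%, 4.35% and 8.29% of regions were. Tbr1 was called in the last 3, at -2.25, -2.94 and -3.88, Tbx3 in total H3K27me3 (-1.76) and K27-K4, and Tbx4 in K4-K27 (-1.54) and K27-K4 (-1.56). Total H3K4me3 at Tbx4 fell short of a call in this wide region (-1.05, limma adjusted p = 0.23), and so did K27-K4 at Tbx5 (-0.96, limma adjusted p = 0.057).

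Each call was made again without 1 clone at a time. K27-K4 at Tbr1 was called in every case, with limma adjusted p from 9.2e-07 to 0.027. Its total H3K27me3 lost the call without WT clone 57 (limma adjusted p = 0.13), and its K4-K27 without WT clone 57, WT clone 58 or DKO clone 53 (0.11, 0.12 and 0.099). For Tbx4, total H3K4me3 lost the call without DKO clone 43 or 53 (limma adjusted p = 1.0 and 0.33). Its K4-K27 lost it without WT clone 57, WT clone 58 or DKO clone 43 (limma adjusted p = 0.11, 0.092 and 0.34) and its K27-K4 without DKO clone 43 or 53 (0.66 and 0.43). Tbx3 lost its total H3K27me3 call without WT clone 57, DKO clone 43 or DKO clone 53 (limma adjusted p = 0.18, 0.51 and 0.058). Tbx5 lost its K27-K4 call without WT clone 57, DKO clone 43 or DKO clone 53 (limma adjusted p = 0.099, 0.47 and 0.21). Calls were also gained. Without WT clone 58, K27-K4 calls were gained at Tbx3 (-1.74), Tbx1 (-1.10), Tbx2 (-1.10) and Tbx20 (-1.17) in the regions of the WT table. That fit rests on WT clone 57 alone for the WT group, and its K27-K4 calls rose over all regions as well. A total H3K27me3 call was gained at Tbx4 in the region of the DKO table (-1.36). Without WT clone 57, total H3K4me3 was called higher at Tbx6 in the region of the WT table (1.65, 0.030). The sign was kept in each of these fits of called genes without 1 clone, in which the clone left alone was assumed to vary like the others.

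Other settings also ended some calls. With each library centred on its median, calls were lost for total H3K27me3 at Tbr1 and Tbx3 (limma adjusted p = 0.23 at both), for K4-K27 at Tbx4 (0.054), and for K27-K4 at Tbx4 and Tbx5 (0.083 and 0.088). With all 16 clone libraries in 1 fit, total H3K27me3 at Tbr1 and Tbx3 (limma adjusted p = 1.0 at both) and K27-K4 at Tbx4 and Tbx5 (0.12 and 0.10) were not called. The differences there were the same, at -2.65, -1.71, -1.56 and -1.58, and the spread was pooled over all kinds of ChIP. Without trend and robust, K27-K4 at Tbx4 and Tbx5 was not called (limma adjusted p = 0.17 and 0.15). On log2(value + 1), total H3K27me3 at Tbx3 fell short of the size threshold (-0.99, limma adjusted p = 0.0068).

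The balance of the marks was compared as total H3K27me3 minus total H3K4me3 over 6 libraries of each, with cell source as a term, in the shared E14 regions. Tbx1 and Tbx5 were called towards H3K27me3 (1.21, SE 0.23, limma adjusted p = 0.00026, and 1.23, SE 0.21, limma adjusted p = 8.8e-05). In that direction 6.14% of shared regions and 2.13% of those within 1.5 kb of a start site were called. Tbx3 was called towards H3K4me3 (-1.55, SE 0.36, limma adjusted p = 0.0013), where 45.0% of shared regions and 62.6% of those near start sites were. The remaining 6 genes lay between -0.18 (Eomes) and 0.89 (Tbx4), and the median of the 9 was 0.59 against -0.70 over all shared regions. When each library was instead centred on its median, the median of all regions moved by 1.09 to 0.39 and the calls split into 8081 towards H3K27me3 and 7178 towards H3K4me3, in place of 1342 and 9832. With centring 7 of the 9 genes were called, Tbx3 lost its call (-0.46, limma adjusted p = 0.17) and Eomes turned to 0.90. On log2(value + 1) the calls at Tbx1 (0.82), Tbx5 (0.63) and Tbx3 (-0.93) fell short of the size threshold, as they did in E14 libraries alone (0.43, 0.92 and -0.98), and in WT libraries alone Tbx1 (1.49, limma adjusted p = 0.12) and Tbx3 (-0.58, limma adjusted p = 0.60) were not called.

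The balance at Tbx3 was -0.76 and -1.20 in E14 replicates, -0.72 and -0.44 in WT clones and -3.48 and -2.69 in DKO clones. DKO values lay apart from all the others. The difference of the effects, DKO less WT, was -2.51 (SE 0.58) and did not pass over all regions (limma adjusted p = 0.13, with 0.0503% of regions called). At the other 8 genes the corresponding difference lay between -0.99 and 0.22, with Tbr1 at -0.99 (limma adjusted p = 0.86).

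The order of the immunoprecipitations was compared as K27-K4 minus K4-K27 in the same regions. limma called 0 of 21857 regions, with 1634 higher and 2611 lower at an unadjusted p under 0.05, so 0 of the 9 genes were called. Centring each library gave 3902 called regions, WT libraries alone 6775 and DKO libraries alone 7568, the last with Tbx3 called towards K4-K27 (-1.66, limma adjusted p = 0.00038). In the fit of all sources the genes' median was 0.39 against 0.13 over all regions. 8 genes lay between 0.23 and 0.53, and Tbx3 was at -0.34 (95% interval -1.23 to 0.56). For Tbx3 the difference was 0.54 and 0.95 in E14 replicates, 0.01 and -0.21 in WT clones and -1.95 and -1.36 in DKO clones. The DKO effect less the E14 effect at Tbx3 was -2.40 (SE 0.92, limma adjusted p = 0.035), in a contrast in which 27.7% of shared regions were called, and DKO less WT was -1.56 (SE 0.92, limma adjusted p = 1.0, with 0 regions called). Cell source and sequencing batch cannot be told apart in the contrast with E14 cells.

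**Figure D3:**
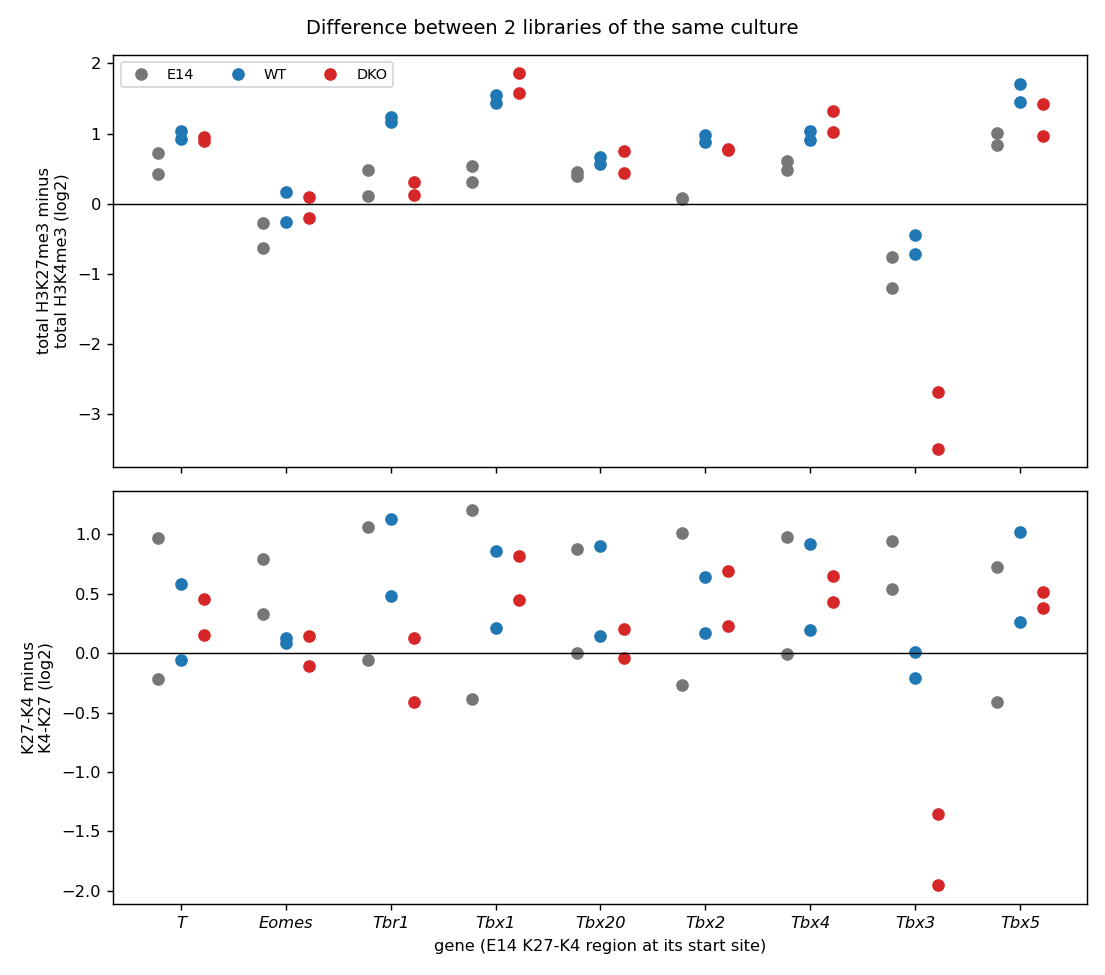
Points show the log2 difference between 2 libraries of the same E14 replicate or clone at 9 genes (horizontal axis), total H3K27me3 minus total H3K4me3 in the upper panel and K27-K4 minus K4-K27 in the lower, for E14 (grey), WT (blue) and DKO (red). Tbx3 in DKO clones stands apart in both panels, at -3.48 and -2.69 above and -1.95 and -1.36 below.

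Other genes of the family and of the same lineages were described for comparison, from lists of 7 further T-box genes and 26 mesoderm and heart genes. Of the 7, regions were found for 5 in each DKO comparison and none was called in the regions of the clone tables. In the shared E14 regions, Tbx22 was called lower in total H3K4me3 (-1.95, SE 0.57, limma adjusted p = 0.016) and in K27-K4 (-1.76, SE 0.40, limma adjusted p = 0.00031). Of the 26, 22 to 24 had a region. Myocd, a coactivator of smooth and cardiac muscle genes, was called lower in total H3K4me3 (-2.87, SE 0.53, limma adjusted p = 4.8e-05) and in K27-K4 (-2.68, SE 0.46, limma adjusted p = 2.3e-05). Hand1, a factor of extraembryonic and lateral mesoderm, was called lower in the K27-K4 region of the DKO table (-1.93, SE 0.46, limma adjusted p = 0.0050) and not in that of the WT table (-1.24, limma adjusted p = 0.16). In the shared E14 regions Myocd was called lower in all 4 comparisons (-1.16 to -2.29), the smallest being total H3K27me3 (SE 0.32, limma adjusted p = 0.018), and Msgn1, a presomitic mesoderm factor, was called lower in K27-K4 (-1.57, SE 0.40, limma adjusted p = 0.0018). The median difference over the regions of the 26 genes was -0.21 and -0.16 for the H3K4me3 and H3K27me3 totals, and -0.50 and -0.60 for K4-K27 and K27-K4. For the other 7 T-box genes it was 0.07, -0.20, -0.52 and -0.36 in the same order.

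In the balance of the marks, 1 of 4 further T-box genes with a shared region was called towards H3K27me3, Tbx15 at 1.17 (SE 0.20, limma adjusted p = 9.2e-05). Of 24 mesoderm and heart genes 3 were called in that direction, the largest being Hand2 at 1.24 (SE 0.20, limma adjusted p = 3.8e-05). Another 2 were called towards H3K4me3: Nodal, a TGF-beta family ligand of mesendoderm induction, at -4.27 (SE 0.34, limma adjusted p = 3.0e-08) and Tcf15 at -2.75 (SE 0.23, limma adjusted p = 4.2e-08). In the order of the immunoprecipitations none of these genes was called.

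The genes whose promoter region followed the mean of the 9 T-box genes most closely over the 24 libraries were Dmrta2 (Pearson's r = 0.99), Sstr1 (0.985), Prrxl1 (0.982), Nkx2-5 (0.980) and Inhba (0.980), out of 15294 genes. The 9 members themselves correlated with that mean between 0.48 (Tbx3) and 0.97 (Tbx2). The libraries share ChIP kinds and cells, and these values are a description.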

How the data were processed

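ChIP and reChIP libraries of 3 cell sources were given as 12 tables of regions. According to the submitters' processing notes the tools were Trim Galore 0.6.6, BWA 0.7.13 (mm10), SAMtools 1.9, Picard 2.6.0, MACS 2 and deepTools 3.5.0. The authors quantified each region with SeqMonk and deposited log2 RPM per kb of region. Whole reads were recovered from these values in all 26 libraries within 0.02 reads, and a region with 0 reads had been entered as 0.9. Each of the 4 E14 tables also held 8 columns of no sample of the series, 32 in all, which were not used. Replicates differed beyond sampling noise.

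Regions were assigned to genes by RefSeq start sites (GRCm38.p6), within 1.5 kb. All 10 genes of the rule are named, and from the 2 gene lists those called, at most 4 a comparison with the largest absolute differences. The genes and lists were chosen with earlier results of these data known. limma 3.58.1 (R 4.3.3; eBayes with trend and robust) was fitted over all regions, with Benjamini-Hochberg adjustment and calls at a log2 difference of 1 and an adjusted p of 0.05, and was tested on simulated data. Totals and reChIPs of the same clone or E14 replicate come from the same cells; the correlation of their replicate differences was -0.12, -0.21 and -0.12 for the totals and 0.19, 0.01 and 0.05 for the reChIPs in E14, WT and DKO cells. The main fit held cell source as a term and the alternative a block for the clone or replicate. Other alternatives were centring, eBayes without trend and robust, no size threshold, leaving out the lowest quartile, log2(value + 1), all 16 clone libraries in 1 fit, the WT table only, single sources, each clone or replicate left out, windows of 0.5 and 5 kb and an overlap of at least 500 bp. The shared E14 regions for the DKO comparisons and the crossed pairing were chosen after seeing the data. Intervals are 95% and come from limma.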

Additional observations from a re-analysis of the deposited data

Results flagged for a closer look

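Tbx3 was the 1 gene of the 9 at which the difference between K27-K4 and K4-K27 had opposite signs in E14 and DKO cells in every library pair. It was 0.54 in E14 replicate 1 and 0.95 in E14 replicate 2, against -1.95 in DKO clone 43 and -1.36 in DKO clone 53, on the log2 scale. The DKO effect less the E14 effect was -2.40 (SE 0.92, limma adjusted p = 0.035), in a contrast that called 27.7% of regions, and DKO less WT was -1.56 (limma adjusted p = 1.0, 0 regions called). In DKO libraries alone the Tbx3 difference was called (-1.66, limma adjusted p = 0.00038), as were 7568 regions. With each library centred, the Tbx3 difference over all sources was 0.10 in place of -0.34. In the same DKO libraries total H3K27me3 at Tbx3 lay at -1.09 and -0.75 log2 RPM per kb, under the IgG–IgG value of 0.12 from WT clone 57, whereas total H3K4me3 lay at 2.39 and 1.93. Batch and cell source cannot be told apart in this contrast, and the part of the lower H3K27me3 in it was not tested.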

How the results depend on the processing

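Over all regions, calls in the DKO comparison of total H3K4me3 (1745) became 3899 with each library centred, 336 without the lowest quartile, 735 with all 16 clone libraries in 1 fit and 829 on the WT table only. For total H3K27me3 (1468) they became 0, 314, 0 and 675, with 326 on log2(value + 1) and 618 on shared E14 regions. For K4-K27 (643) they became 7715 without trend and robust (3476 higher and 4239 lower, against 3 and 640), 7602 with all 16 libraries (3059 higher and 4543 lower) and 1060 on shared regions, and for K27-K4 (1341) they became 4072 on log2(value + 1), of which 1031 higher and 3041 lower against 16 and 1325, and 2043 on shared regions. Centring shifted the median of all regions by 0.18 in K27-K4, 1.09 in the balance of marks and 0.44 in the order of the reChIPs. The T-box genes called for total H3K4me3 (1) were 0 on shared regions. For total H3K27me3 (2) they were 0 with centring, 1 without the lowest quartile (which left out the Tbr1 region itself), 1 on log2(value + 1) and 0 with all 16 libraries. For K4-K27 (2) there was 1 with centring, and for K27-K4 (3) 1 with centring, 1 without trend and robust and 1 with all 16 libraries. In the balance of the totals (3) they were 7 with centring, 8 with no size threshold, 0 on log2(value + 1), 0 in E14 and 1 in WT libraries alone. In the main fit of the balance 51.1% of all shared regions were called either way. The share without a size threshold is not given here, so that count does not set the T-box genes apart. The order of the reChIPs (0 calls) gave 3902 regions with centring, 6775 in WT and 7568 in DKO libraries alone, the last with 1 T-box gene. With 5 kb either side 7 genes had a total H3K27me3 and 6 a total H3K4me3 region in E14 cells.

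Leaving out 1 clone or replicate gave 74 to 6018 regions and 0 to 2 T-box genes for total H3K4me3, 133 to 650 and 0 to 3 for total H3K27me3, 243 to 558 and 0 to 1 for K4-K27, 482 to 8630 and 1 to 7 for K27-K4, and 0 to 5372 regions for the order. The balance of directions over all regions turned without WT clone 57, to 1256 higher and 479 lower in total H3K4me3 (163 and 1582 with all clones), 568 higher and 82 lower in total H3K27me3 (520 and 948, and 209 and 148 without WT clone 58) and 2277 higher and 1853 lower in K27-K4 (16 and 1325). Differences that changed sign under centring or log2(value + 1) were Eomes total H3K4me3 (-0.0178 and -0.0129) and, with centring, Tbx3 K4-K27 in the WT region (0.0375), Eomes balance (0.90) and Tbx3 order (0.10). Tbx3 order was 0.74 in E14 and Tbr1 order -0.14 in DKO libraries alone. With a clone left out, sign changes, none of them called before, spanned for total H3K4me3 -0.65 to 0.37 and -0.67 to 0.39 at T (DKO and WT regions), -0.67 to 0.70 at Eomes, and -0.32 to 0.79 and -0.36 to 0.78 at Tbx20. For total H3K27me3 they spanned -0.37 to 0.33 at T, -0.42 to 0.22 at Eomes, -0.48 to 0.24 and -0.49 to 0.24 at Tbx1, -0.45 to 0.18 and -0.44 to 0.19 at Tbx20 and -0.64 to 0.0807 and -0.64 to 0.0784 at Tbx2. For K4-K27 they spanned -0.29 to 0.39 and -0.32 to 0.43 at Tbx20 and -0.29 to 0.40 and -0.38 to 0.37 at Tbx3, and for K27-K4 -0.77 to 0.0326 at Eomes and -1.17 to 0.28 at Tbx20. The causes were not tested.

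With the clone or replicate as a block, pairing gave 11129 called regions for the balance (11174 without it) with the same count of 3 T-box genes, and 0 for the order. The crossed pairing gave 11166. WT and DKO clones share no numbers, so no block could be used there. Of all alternative fits of named genes 886 kept sign and call, 54 lost a call, 25 gained one and 42 changed sign. Regions with few reads, such as Tbr1 K4-K27 in DKO clones (14 and 9), limit the precision, and 2 clones a genotype limit every DKO comparison. Fits without 1 library assume that the lone one varies like the others.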
